A study of Mus musculus with 12 samples.

Results

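The Bex and Tceal genes are a family of small X-linked genes, most of them packed into a single stretch of the mouse X chromosome. Bex genes (brain expressed X-linked) encode short, largely unstructured proteins that act as adaptors in signalling, and Tceal genes take their name from a likeness to transcription elongation factor A. The genes described here were the rows named Bex1, Bex2, Ngfrap1 (now Bex3), Wbp5 (now Tceal9), Tceal1, Tceal3, Tceal5, Tceal6 and Tceal8. They were chosen by name, and all 9 were present among the 952 X-linked genes of the deposited table.

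Chromatin immunoprecipitation and sequencing (ChIP-seq) was done for H3K27me3 and H3K9me3 in female mouse embryonic fibroblasts (MEF, labelled E13.5) and epiblast stem cells (EpiSC, labelled E6.5), the E giving days of embryonic life. In each cell type, cells homozygous for the MD1 allele of Smchd1 (MD1) were set against Smchd1 +/+ cells (WT). All groups also carried Xist deltaA on a single X (Xist deltaA/+) and came from a cross of C57BL6/J with (JF1 x C57BL6/J F1) animals. There were 8 ChIP libraries, 1 for each mark, genotype and cell type, and 4 input libraries, so no difference has a replicate check and no test across samples was possible. The labels do not say how many cell lines or embryos stood behind a library.

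H3K27me3 is laid down by Polycomb repressive complex 2 and covers the inactive X, and H3K9me3 marks constitutive heterochromatin. SmcHD1 is a chromosomal protein of the SMC family that is needed to keep many genes on the inactive X silent. The labels do not say whether reads of the inactive X alone were counted, so the values are described as enrichment at the gene.

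The family sits close together. In mm9, counted from 1, the members lie between 131743225 and 133244405 on chromosome X, a span of 1.501 Mb. Tceal6 (X, 131743225 to 131745226) stands apart, with 856 kb to the next member, Bex2. From there 6 members follow within 205 kb: Bex2 (132601104 to 132602775), Tceal8 (132703523 to 132706790), Tceal5 (132735490 to 132738390), Bex1 (132748511 to 132750052), Wbp5 (132779619 to 132781678) and Ngfrap1 (132804792 to 132806517). Tceal3 (133200914 to 133202916) and Tceal1 (133242604 to 133244405) close the segment. Each interval is the whole gene as listed, exons and introns together. The genes are short, 1542 to 3268 bases long with a median of 2002, against a median of 16910 for all 768 genes that had a value in any library.

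Most of the members also share a promoter element. The RefSeq promoter table (GRCm38.p6) holds windows of 250 bases before to 50 after each listed start, and all 9 members were matched in it. Of the 9 genes, 7 had the letters TGACG followed after 7 to 9 bases by CACGTG. On either strand this pair was found in 31 of 32841 windows of all genes (0.0944%) and in 15 of 1222 windows on the X (1.23%). It was chosen after the members' sequences were seen, so these shares are a description. A shared promoter motif of Bex, Tceal and Gprasp genes has been described before. Whether the pair is that motif was not tested. The windows from 50 bases before to 40 after the start are shown because they show what the genes have in common, with TGACG and CACGTG of the printed strand in capitals. For Tceal3 and Tceal5, which have several listed starts, the start nearest to the pair is shown.
Bex1, chrX:136215474-136215563, minus strand: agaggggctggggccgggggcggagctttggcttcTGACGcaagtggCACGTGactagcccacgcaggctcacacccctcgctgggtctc
Bex2, chrX:136068197-136068286, minus strand: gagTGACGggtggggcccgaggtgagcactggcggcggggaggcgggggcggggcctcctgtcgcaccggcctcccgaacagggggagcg
Ngfrap1, chrX:136270203-136270292, plus strand: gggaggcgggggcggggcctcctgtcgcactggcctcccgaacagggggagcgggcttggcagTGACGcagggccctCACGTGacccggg
Wbp5, chrX:136245030-136245119, plus strand: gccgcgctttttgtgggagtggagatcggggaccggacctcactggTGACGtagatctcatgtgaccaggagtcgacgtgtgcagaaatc
Tceal1, chrX:136707932-136708021, plus strand: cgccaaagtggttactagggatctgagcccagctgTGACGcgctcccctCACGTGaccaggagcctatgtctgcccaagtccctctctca
Tceal3, chrX:136666325-136666414, plus strand: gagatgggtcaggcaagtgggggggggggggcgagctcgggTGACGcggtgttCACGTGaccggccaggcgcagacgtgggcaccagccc
Tceal5, chrX:136203845-136203934, minus strand: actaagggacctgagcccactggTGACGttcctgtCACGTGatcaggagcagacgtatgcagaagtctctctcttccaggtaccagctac
Tceal6, chrX:135210648-135210737, minus strand: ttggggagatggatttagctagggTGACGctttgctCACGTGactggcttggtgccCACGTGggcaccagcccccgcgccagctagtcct
Tceal8, chrX:136172212-136172301, minus strand: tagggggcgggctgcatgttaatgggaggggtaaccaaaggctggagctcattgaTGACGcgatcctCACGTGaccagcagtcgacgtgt

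In Wbp5 the letters CATGTG stand 7 bases after TGACG, and in Bex2 the window holds TGACG without CACGTG. The Bex2 and Ngfrap1 windows were identical at 223 of 263 aligned bases (84.8%), and the CACGTG of Ngfrap1 would fall 15 bases past the end of the Bex2 window. In this alignment the Bex2 TGACG matches a TGACG 84 bases before the Ngfrap1 start, not the TGACG of the Ngfrap1 pair. Among other genes listed by name, the pair was also in the promoters of Bex4, Armcx1, Armcx4 and Armcx6, all in or beside the same segment. The windows of Tceal7, Armcx2, Armcx5, Gprasp1, Gprasp2 and Bhlhb9 did not hold it. In all, 13 of the 29 genes with the pair lie on the X, and 11 of these 13 are Bex, Tceal or Armcx genes. The Bex1 window was identical to that of Bex4 at 288 of 294 bases (98.0%). If the likeness runs on into the genes, reads could be split between them, so Bex1 values are uncertain. Identity over the whole genes was not compared. G+C made up 47.0 to 65.3% of the members' windows, with a median of 56.3%, against 52.7% over all promoters.

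The deposited values are log2 enrichments. In each library every value equals a whole-number fraction multiplied by a fixed factor, and the fraction is taken as ChIP reads divided by input reads. The smallest whole numbers that give a value are called its ChIP pair and input pair. True read numbers could be larger by a common multiple. Input pairs of the members ran from 4 to 35 in MD1 MEF, 6 to 23 in WT MEF, 3 to 16 in MD1 EpiSC and 2 to 13 in WT EpiSC. The median input pair over all genes was 129.5 in MD1 MEF, 99 in WT MEF, 85 in MD1 EpiSC and 78 in WT EpiSC. The members thus rest on far smaller pairs than most genes. Smaller pairs give wider intervals and more scatter in the values, and the shares of all genes given below are not matched for pair size. A change is the MD1 minus the WT log2 value, given with a 95% interval from the pairs that covers counting error only. Because the constant of each library is unknown, each change is also read against the median change of all genes. Bex1, Ngfrap1, Wbp5, Tceal3, Tceal6 and Tceal8 had values in all 8 libraries, Tceal5 had none in WT EpiSC, and Bex2 and Tceal1 had values in EpiSC only.

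H3K27me3 was higher in MD1 than in WT MEF at all 7 members measured there. Once each library was centred on its median, 6 of the 7 were higher, and Tceal8 stood at −0.0063. Centring sets library medians to 0, but not the median change of all genes. The share of all genes higher after centring was not counted. As deposited, the median change was 1.36, against 0.34 over the 739 genes measured in both. At least 2-fold higher were 4 of the 7, where 22.3% of all genes were, and 0 of 7 were at least 2-fold lower, where 24.0% of all genes were. By any amount, 61.4% of all genes were higher and 38.6% lower. Deposited MD1 values ran from 2.51 to 4.62 and WT values from 0.69 to 2.55. These values met only at their edges, where Wbp5 in MD1 lay just under Tceal3 in WT. By percentile the ranges overlapped more, from 56.7 to 99.9 in MD1 and from 15.3 to 77.6 in WT.

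**Figure D1:**
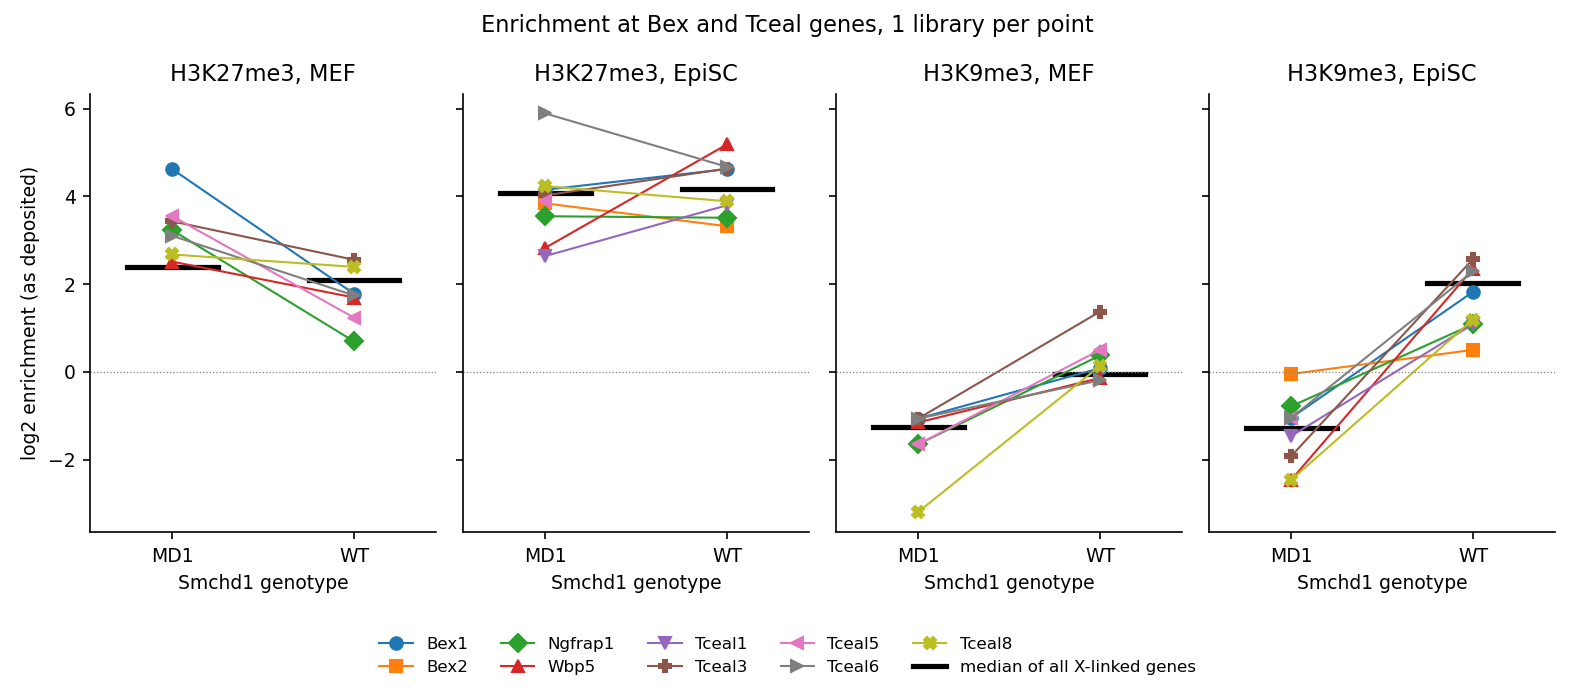
Log2 enrichment as deposited (y axis) in MD1 and WT cells for each mark and cell type; each coloured point is 1 gene in 1 library, lines join the same gene, and black bars are library medians over all X-linked genes. In the MEF panel of H3K27me3 all 7 genes are higher in MD1, with Tceal8 at −0.0063 after centring. In both H3K9me3 panels every gene measured in both genotypes is lower in MD1 as deposited. After centring, 4 of 8 genes in EpiSC and 3 of 7 in MEF are above 0, and the share of all genes above 0 was not counted.

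Ngfrap1 encodes an adaptor that binds the p75 neurotrophin receptor and can promote cell death. Its H3K27me3 value was 3.23 in MD1 MEF and 0.69 in WT MEF, a change of 2.53 (95% counting interval 0.60 to 4.47). The ChIP pair was 40 in MD1 and 9 in WT over an input pair of 6 in each. Taken as shares of the pairs summed over all genes measured in both genotypes, MD1 minus WT on the log2 scale, its ChIP pairs differed by 1.72 and its input pairs by −0.46. In WT MEF it had the lowest rank of the members, at the 15.3 percentile of the library, and in MD1 MEF it stood at the 93.6 percentile.

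Bex1 encodes an adaptor that also binds the p75 receptor and is tied to cell cycle and differentiation of neural cells. Its H3K27me3 value was 4.62 in MD1 MEF, the highest of all 754 genes in that library (99.9 percentile), and 1.78 in WT MEF, a change of 2.84 (1.09 to 4.59). The ChIP pair was 70 in MD1 and 35 in WT, while the input pair was 4 in MD1 and 11 in WT. As shares of all genes the Bex1 ChIP pairs differed by 0.57 and its input pairs by −1.92. Such a split depends on the unknown multiple behind each pair, and the part of the input in this and the other changes was not tested.

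Tceal5 had 3.55 in MD1 MEF and 1.23 in WT MEF, a change of 2.32 (0.72 to 3.91), on ChIP pairs of 50 in MD1 and 24 in WT and input pairs of 6 in MD1 and 11 in WT. Its ChIP share differed by 0.63 and its input share by −1.34. Tceal6 had 3.10 in MD1 and 1.74 in WT, a change of 1.36 (0.36 to 2.36). Its input pair was 20 in each genotype and its ChIP pair 122 in MD1 against 62 in WT, the largest pairs among the 4 members with a change of at least 2-fold.

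The other 3 members changed by less than 2-fold, with intervals that included 0. Tceal3 had 3.43 in MD1 MEF and 2.55 in WT MEF, a change of 0.88 (−0.47 to 2.22). Wbp5, whose product was first isolated as a WW domain-binding protein, had 2.51 in MD1 and 1.69 in WT, a change of 0.82 (−0.32 to 1.96). Tceal8 had 2.67 in MD1 and 2.39 in WT, a change of 0.28 (−0.55 to 1.12). The intervals of 4 of the 7 members lay above 0, which was also the case for 44.2% of all genes, not matched for pair size. Summed over the 7, the ChIP pairs were 602 in MD1 and 336 in WT, and the input pairs 100 in MD1 and 95 in WT. As shares of all genes these sums differed by 0.41 for ChIP and −0.39 for input.

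**Figure D2:**
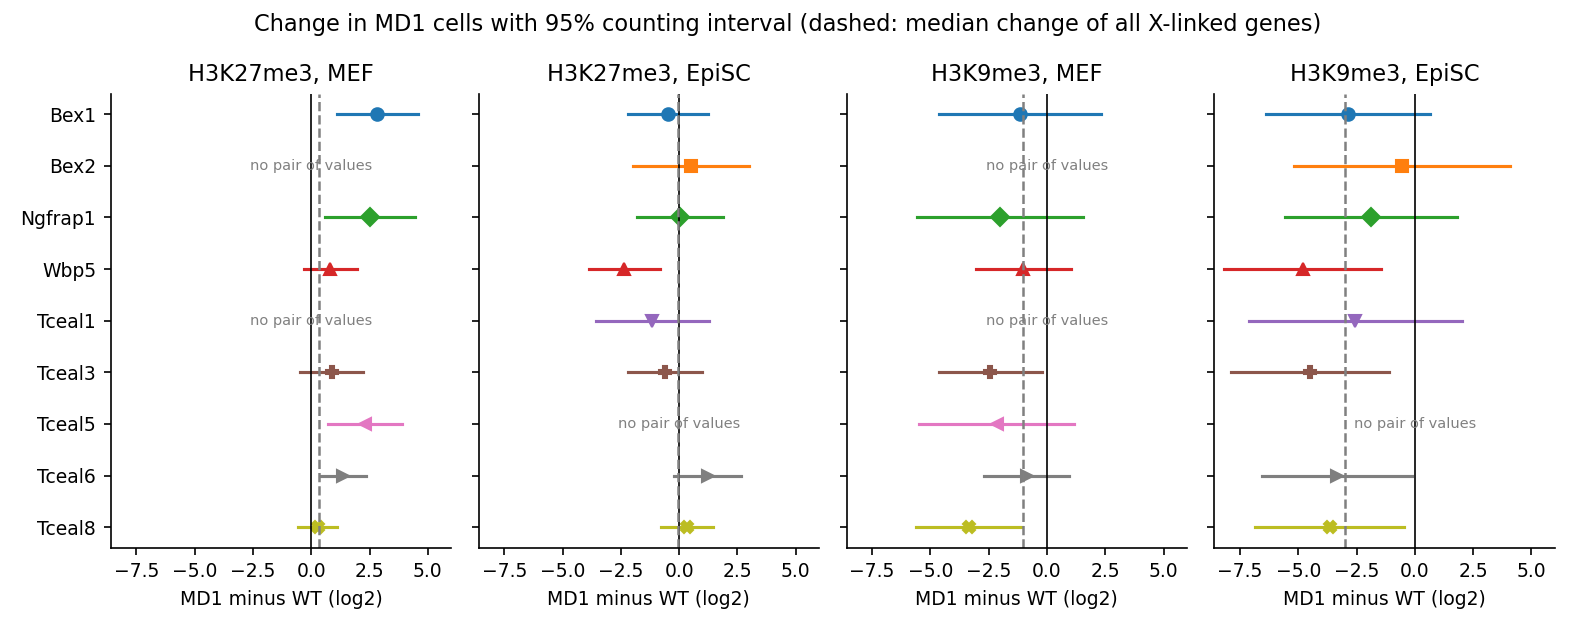
Change between MD1 and WT (x axis, log2) for each gene, mark and cell type; points are changes, bars 95% counting intervals, the dashed line the median change of all X-linked genes. The H3K27me3 intervals of Bex1, Ngfrap1, Tceal5 and Tceal6 in MEF lie above 0, while most H3K9me3 intervals span several log2 units.

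Genes around the family moved in both directions in MD1 MEF. Of the 37 other genes with a value between the outermost members or among the 10 on either side, 31 had H3K27me3 values in both genotypes. By any amount 22 of these 31 were higher in MD1, where 61.4% of all genes were. At least 2-fold higher were 4 (22.3% of all genes) and at least 2-fold lower were 8 (24.0% of all genes). The median change was 0.35 and the range −5.08 to 3.41. Morf4l2, which encodes a chromatin protein related to MORF4, starts 23.1 kb past the end of Tceal1. It had −3.21 in MD1 and 1.87 in WT, a change of −5.08, or 33.7-fold lower, on ChIP over input pairs of 5 over 65 in MD1 and 169 over 50 in WT. The next genes on that side, BC065397 (−2.95) and Glra4 (−3.12), a glycine receptor subunit gene, were also lower, though the BC065397 interval overlaps those of Morf4l2 and Glra4, which could share reads with it. H2bfm, a histone H2B variant gene farther out, had the largest increase, 3.41.

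Armcx1 to Armcx6, Gprasp1, Gprasp2 and Bhlhb9, from the same segment, made up a list of 9 related genes. For H3K27me3 in MEF 6 of the 9 had values in both genotypes. By any amount 5 of these were higher in MD1, where 61.4% of all genes were. At least 2-fold higher were 2, Bhlhb9 (1.08) and Armcx6 (1.01), and only 1 gene was lower. That gene was Gprasp1, which encodes a sorting protein for G protein-coupled receptors, with 0.55 in MD1 and 2.35 in WT, a change of −1.80. Its interval covers that of Armcx5, so these genes could share reads. The list's median change was 0.52.

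**Figure D3:**
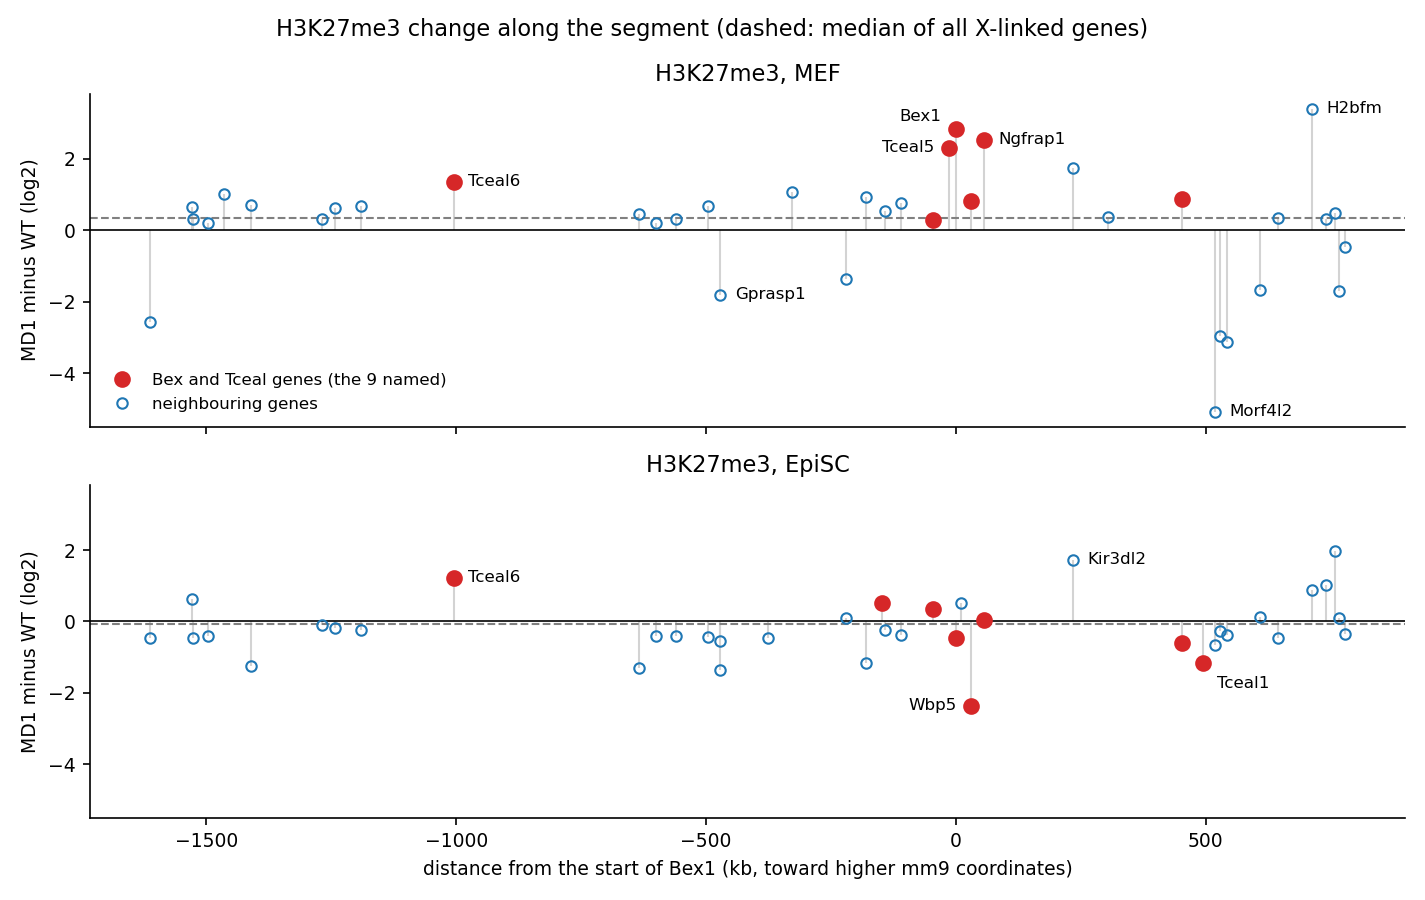
H3K27me3 change between MD1 and WT (y axis, log2) against distance from the start of Bex1 (x axis, kb) in MEF and EpiSC; filled points are the 9 Bex and Tceal genes, open points their neighbours, the dashed line the median of all X-linked genes. In MEF the members lie at 0.28 or above as deposited (Tceal8 at −0.0063 after centring), with Morf4l2 at −5.08 beyond the end of the family.

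H3K27me3 in EpiSC showed no common direction. Of the 8 members measured in both genotypes, 4 were higher (47.6% of all genes) and 4 lower (52.4% of all genes) in MD1, with a median change of −0.22 against −0.069 over 708 genes. At least 2-fold higher was 1 member (22.7% of all genes) and at least 2-fold lower were 2 (11.3% of all genes). MD1 values ran from 2.64 to 5.89 over all 9 members and WT values from 3.32 to 5.18 over 8, so the groups overlapped throughout.

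Wbp5 had 2.83 in MD1 EpiSC and 5.18 in WT EpiSC, a change of −2.36 (−3.88 to −0.84), the only interval among the 8 that excluded 0, where 31.2% of all genes had an interval below 0 and 29.7% one above. Its ChIP pair was 66 in MD1 and 85 in WT, and its input pair 16 in MD1 and 5 in WT. As shares of all genes the ChIP pairs differed by −0.57 and the input pairs by 1.69. Tceal1, a nuclear phosphoprotein gene, had 2.64 in MD1 and 3.80 in WT, a change of −1.16 (−3.58 to 1.27) on a WT input pair of 2.

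Tceal6 was the member with H3K27me3 at least 2-fold higher in MD1 EpiSC, 5.89 in MD1 and 4.67 in WT, a change of 1.22 (−0.21 to 2.65). Its rank was at the 99.8 percentile in MD1 and at 75.9 in WT. The ChIP pair was 207 in MD1 and 155 in WT, and the input pair 6 in MD1 and 13 in WT. Bex2 (3.84 in MD1 and 3.32 in WT), Ngfrap1 (3.55 in MD1 and 3.51 in WT) and Tceal8 (4.23 in MD1 and 3.89 in WT) were higher in MD1 by 0.52, 0.04 and 0.34. Lower in MD1 were Bex1 (4.15 in MD1 and 4.62 in WT), with a change of −0.47, and Tceal3 (4.02 in MD1 and 4.63 in WT), with −0.61. All of these intervals included 0. Tceal5 had 3.90 in MD1 EpiSC. The 6 Armcx and Gprasp genes with values in both genotypes were all lower in MD1, with a median of −0.49, and Armcx5 (−1.37) and Armcx2 (−1.25) were at least 2-fold lower.

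H3K9me3 was lower in MD1 than in WT MEF at all 7 members as deposited, and at 4 of the 7 after centring. The share of all genes lower after centring was not counted. The deposited values did not overlap. MD1 values ran from −3.19 to −1.07 and WT values from −0.19 to 1.37. The medians of all genes also lay apart, at −1.26 in MD1 and −0.05 in WT. By percentile the members' ranges overlapped, from 5.64 to 58.1 in MD1 and from 45.3 to 87.2 in WT. At least 2-fold lower were 6 of 7, where 51.3% of all genes were, and 0 were at least 2-fold higher, where 0.677% were. By any amount 91.9% of all genes were lower and 8.12% higher. The median change was −2.02, against −1.02 over all genes. After centring, 2 of the 7 were at least 2-fold lower, Tceal8 (−2.12) and Tceal3 (−1.23), where 21.8% of all genes were, and 0 were at least 2-fold higher, where 12.7% were. The centred median was −0.81, and that of all genes was not computed.

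Tceal8 had −3.19 in MD1 MEF and 0.13 in WT MEF, a change of −3.33 (−5.61 to −1.05), on ChIP over input pairs of 2 over 35 in MD1 and 13 over 23 in WT. Tceal3 had −1.07 in MD1 and 1.37 in WT, a change of −2.44 (−4.65 to −0.23), and in WT it had the highest H3K9me3 of the family, at the 87.2 percentile of the library. Only these intervals lay below 0 among the 7, where 65.1% of all genes, not matched for pair size, had such an interval. Tceal5 (−1.65 in MD1 and 0.50 in WT), Ngfrap1 (−1.65 in MD1 and 0.37 in WT) and Bex1 (−1.07 in MD1 and 0.08 in WT) each rested on an MD1 ChIP pair of 1. Wbp5 changed by −1.01, with −1.15 in MD1 and −0.14 in WT, and Tceal6 by −0.87, with −1.07 in MD1 and −0.19 in WT. After centring, Bex1 (0.06), Wbp5 (0.20) and Tceal6 (0.34) lay above 0. The 6 Armcx, Gprasp and Bhlhb9 genes measured had a median of −1.22, and 3 of them were at least 2-fold lower. Of the 31 neighbours, 13 were at least 2-fold lower, with a median of −0.83.

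In EpiSC, H3K9me3 was lower in MD1 at all 8 members with both values as deposited, and at 4 of the 8 after centring. The share of all genes lower after centring was not counted. As deposited, the members shared the shift seen over the whole X. The median change was −3.11, against −2.98 over all genes, and 7 of 8 were at least 2-fold lower, where 82.9% of all genes were. By any amount 95.9% of all genes were lower and 4.10% higher, and 0 members were at least 2-fold higher, where 1.13% of all genes were. As deposited, MD1 values ran from −2.46 to −0.05 and WT values from 0.50 to 2.57, with no overlap. The medians of all genes also lay apart, at −1.27 in MD1 and 2.03 in WT. By percentile the members' ranges overlapped, from 8.49 to 86.5 in MD1 and from 28.9 to 58.5 in WT. After centring the median was 0.19, and the centred median of all genes was not computed. At least 2-fold lower were 2 members (Wbp5 −1.51, Tceal3 −1.20), where 22.9% of all genes were. At least 2-fold higher were 2 (Bex2 2.75, Ngfrap1 1.43), where 38.4% of all genes were. Neither of the higher values is a measured gain: Bex2 had a pair of 1 over 3 in both genotypes and Ngfrap1 an MD1 ChIP pair of 1. All 31 neighbours measured were at least 2-fold lower as deposited, with a median of −3.50, and Rab9b (−6.90) and Nxf3 (−5.69) stood lowest.

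All 9 members in MD1 EpiSC rested on an H3K9me3 ChIP pair of 1, which 87 of the 736 genes of that library did (11.8%). A pair of 0 cannot occur in a log2 ratio, so a pair of 1 cannot be told apart from 0 reads with 1 added to them. The order of the members in this library was therefore set by the input alone: Tceal5, Tceal6 and Bex1, each over an input pair of 6, shared the value −1.05, and Wbp5 and Tceal8, each over 16, shared −2.46. Bex2, over an input pair of 3, had the highest value, −0.05. No ranking of residual H3K9me3 among these genes can be read from MD1 EpiSC.

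In WT EpiSC the ChIP pairs ran from 1, at Bex2 and Tceal1, to 15 at Tceal6, and H3K9me3 was highest at Tceal3 (2.57), Wbp5 (2.35) and Tceal6 (2.29) and lowest at Bex2 (0.50). Bex1 had 1.82, Tceal8 1.19, and Ngfrap1 and Tceal1 1.09 each. These values lay between the 28.9 and 58.5 percentiles of the library, so no member was among the genes richest in H3K9me3. The changes were −4.81 (−8.19 to −1.43) at Wbp5 and −4.49 (−7.88 to −1.11) at Tceal3, and their order depends in part on the MD1 input pairs. Tceal8 (−3.66) and Tceal6 (−3.34) also had intervals below 0, which makes 4 of 8, against 79.1% of all genes. The median H3K9me3 ChIP pair of all genes in MD1 EpiSC was 13, against 1 at every member, and smaller pairs give wider intervals. Bex1 (−2.87), Tceal1 (−2.55), Ngfrap1 (−1.87) and Bex2 (−0.55) had intervals that included 0.

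Ranks within a library do not depend on its unknown constant, and by rank the family's H3K27me3 stood higher in MEF in MD1 cells and higher in EpiSC in WT cells, a contrast that was not tested. In MD1 cells the median percentile of the 7 members with both values was 93.6 in MEF and 45.7 in EpiSC, and 6 of the 7 ranked higher in MEF. In WT cells the median of the 6 members with both values was 34.9 in MEF and 73.6 in EpiSC, and 2 of the 6 ranked higher in MEF. The share of all genes that ranked higher in MEF was not counted, so these counts have no background beside them. Among genes with input pairs of at least 20, which left Tceal6 and Tceal8, the MEF medians were 79.8 in MD1 and 50.4 in WT. All these ranks use the same libraries as the changes above and are no independent support for them. For H3K9me3 in WT cells the median percentile was 58.0 in MEF and 50.5 in EpiSC, and in MD1 cells no comparison was made, since the EpiSC ranks of the members follow the input alone. As deposited, the H3K27me3 difference between MEF and EpiSC had a median of −0.35 in MD1 and −2.83 in WT, where all genes had −1.67 in MD1 and −1.88 in WT.

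**Figure D4:**
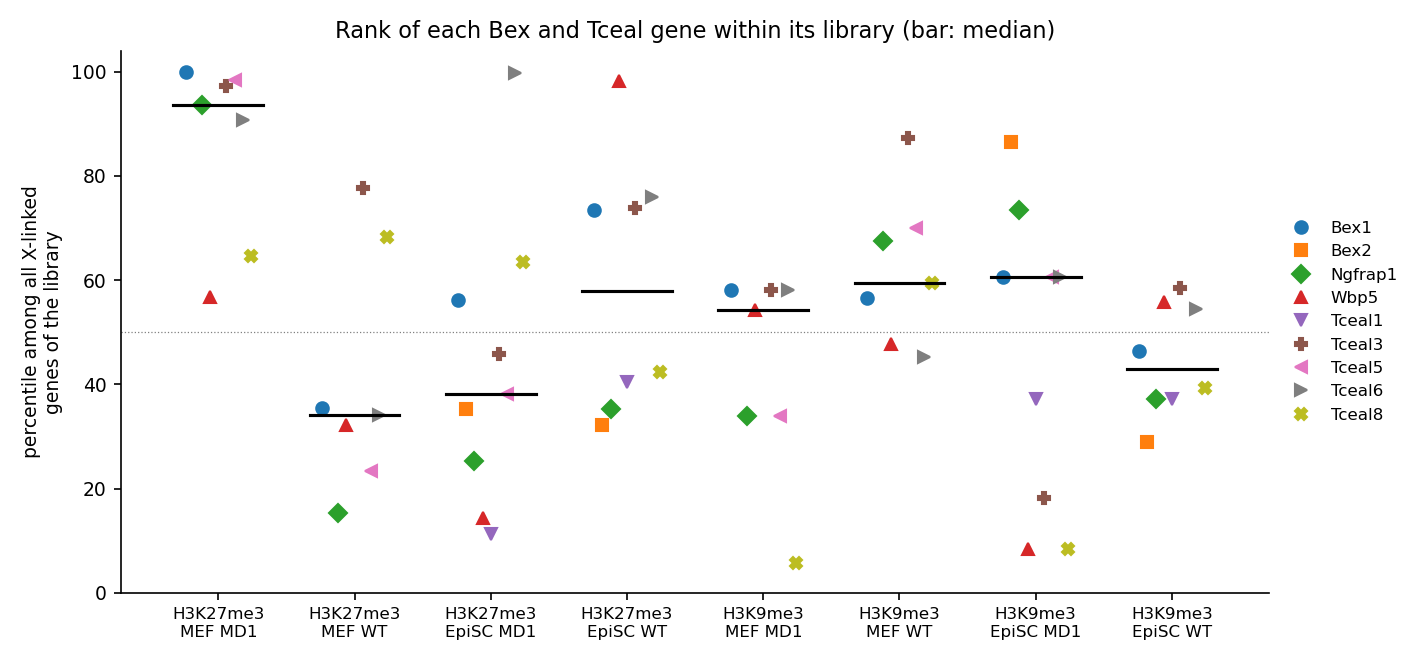
Percentile of each gene among all X-linked genes of the same library (y axis) for the 8 ChIP libraries (x axis); points are genes and black bars the median of the genes shown. For H3K27me3 in MEF the median is 93.6 in MD1 and 34.2 in WT.

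Further family members in the table were Tceal7, with values in 6 libraries but not in MD1 MEF, and Bex4, with values in 2. Tceal7 had H3K27me3 of 4.67 in MD1 EpiSC and 4.15 in WT EpiSC, and H3K9me3 of 0.54 in MD1, on a ChIP pair of 3, and 2.74 in WT. In WT MEF its H3K27me3 was 3.74, at the 99.7 percentile, on a ChIP pair of 62 over an input pair of only 5. The next-door Bex1, whose values are uncertain, stood at 35.5 there, on a pair of 35 over 11. Bex4 had values in WT MEF only, 0.81 for H3K27me3 and −0.46 for H3K9me3.

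Across the 8 libraries the genes most like the median profile of the 6 fully measured members were F9, Gyk, Gpm6b, Asb11 and Asb9. Their distances from it were 0.90 to 0.97 (Euclidean distance over the 8 library-centred log2 values), among 698 genes with all values. F9 encodes coagulation factor IX and Gyk glycerol kinase, and none of the 5 lies in the Bex and Tceal segment. The members themselves were farther from their own median, from 1.54 at Bex1 to 2.69 at Tceal8, while the median distance of the other genes was 3.31. The 5 genes were picked for small distance and the members enter the median, so these distances are a description. Taken one by one, none of the 6 members had another member among its 5 nearest genes.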

How the data were processed

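The authors deposited 1 log2 enrichment value per X-linked gene and ChIP library. Tools named in the submitters' processing notes are BWA, SAMtools and cutadapt, and the build named there is mm9. Neither these notes nor the labels give versions, the counting rule, a pseudocount or what makes a value missing. Deposited starts count from 0: of the 9 members matched in RefSeq (GRCm38.p6), 6 had the RefSeq length when read that way and 0 when read as counting from 1. Whole-number pairs were recovered with 1 constant per library (denominator at most 30000, relative tolerance 1e-12) and matched 100% of values in each library. The recovery was also run on counts simulated from these same pairs. That run cannot show whether a pseudocount was added or reads were chosen by allele. Both marks of the same cells were given a common input. Counting intervals use the normal approximation on the log scale, which is rough for pairs of a few reads. Changes were called at 2-fold. Percentiles are mid-ranks among all genes of a library. With 1 library per group, no test was run. The table holds no autosomal gene, so neither Smchd1 nor markers of the cell types could be checked. Members, lists and settings were chosen with earlier results of these data known. All members are named. Of neighbours and Armcx, Gprasp and Bhlhb9 genes, up to 3 per mark with the largest changes are named; BC065397, Bhlhb9 and Armcx6 were added after their values were seen. Python 3.11.15, numpy 2.4.6, pandas 2.3.3 and scipy 1.17.1 were used.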

Additional observations from a re-analysis of the deposited data

Results flagged for a closer look

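At 3 of the 6 members with all 8 values, the H3K27me3 change between MD1 and WT had opposite signs in the 2 cell types. The share of all genes with opposite signs was not counted. With 1 library in each group, the contrast was not tested across samples. At Bex1 the change was 2.84 in MEF and −0.47 in EpiSC, a difference of 3.31 (95% counting interval 0.87 to 5.76). At Wbp5 it was 0.82 in MEF and −2.36 in EpiSC, a difference of 3.18 (1.28 to 5.08). At Tceal3 it was 0.88 in MEF and −0.61 in EpiSC, a difference of 1.49 (−0.60 to 3.57). The intervals of the single changes included 0 at Bex1 in EpiSC (−2.18 to 1.24) and at Wbp5 in MEF (−0.32 to 1.96). At Tceal3 they included 0 in both cell types. The input pairs behind the Bex1 change in MEF were 4 in MD1 and 11 in WT, and those behind the Wbp5 change in EpiSC were 16 in MD1 and 5 in WT. The part of the input in these differences was not tested.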

How the results depend on the processing

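After each library was centred on its median, members at least 2-fold lower in H3K9me3 numbered 2 in EpiSC and 2 in MEF, 2 were at least 2-fold higher in EpiSC, and the EpiSC median change was 0.19. Among single H3K9me3 changes, centring turned Bex1 (0.43), Bex2 (2.75), Ngfrap1 (1.43) and Tceal1 (0.75) in EpiSC and Bex1 (0.060), Wbp5 (0.20) and Tceal6 (0.34) in MEF above 0. Subtracting the neighbours' median turned Bex1 (0.63), Bex2 (2.95), Ngfrap1 (1.63), Tceal1 (0.95) and Tceal6 (0.16) in EpiSC above 0, and Tceal8 in H3K27me3 of MEF to −0.069. With a 3-fold threshold 1 member was lower and 0 were higher in H3K27me3 of EpiSC. With input pairs of at least 20, no member was left in EpiSC, and in MEF Tceal6 and Tceal8 remained: 1 was lower in H3K9me3 and 1 higher in H3K27me3, with median percentiles of 32.2 (H3K9me3) and 79.8 (H3K27me3) in MD1 and 50.4 (H3K27me3) in WT. Median percentiles in EpiSC were also taken among genes with all 8 values, which left 6 members. For H3K9me3 they were 39.97 in MD1 (60.6 before) and 50.6 in WT (42.9 before). The MD1 ranks of H3K9me3 follow the input alone, so no ranking is read from them. For H3K27me3 they were 49.7 in MD1 (38.1 before) and 73.0 in WT (57.9 before). Centring, added after the results were seen, gave median differences between MEF and EpiSC of 1.35 (MD1) and −0.75 (WT) for H3K27me3 and 0.61 (WT) for H3K9me3. Of 90 recomputed single changes, 76 stayed within their counting interval without reversing a change of 2-fold or more. Another 5 moved outside the interval, and 9 reversed a change of 2-fold or more, all in H3K9me3. No paired analysis was possible because each group had 1 library. The cause of these shifts was not tested. Depth limits all values: the largest input pair of a member was 35.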
